A study of Mus musculus with 24 samples.

Results

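The effect of the AMPK activator MK-8722 on gene expression was compared between WT and *tfeb tfe3* DKO MEFs (mouse embryonic fibroblasts), gene by gene. The interaction is the log2 fold change of MK-8722 against DMSO in DKO minus the same log2 fold change in WT, and it was tested in 15401 genes over 16 of the 24 libraries of the series, with the 8 libraries of torin1 lending their spread to the fit. A gene was called when edgeR's quasi-likelihood test gave a Benjamini-Hochberg adjusted p under 0.05 and the fold was at least 1.2. The called genes, 846 in all, were then sorted by what MK-8722 did in each genotype. A lower interaction was a rise lost where the gene was called up in WT, and otherwise a fall deepened where it was called down in DKO. A higher interaction was a fall lost where the gene was called down in WT, and otherwise a rise gained where it was called up in DKO. The remaining called genes were left unsorted.

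The groups were WT cells with 0.1% DMSO, WT cells with 10 uM MK-8722, DKO cells with 0.1% DMSO and DKO cells with 10 uM MK-8722, each with 4 libraries. The labels give the genotype of the DKO cells as Tfeb/Tfe3 KO. The sources name no second line or clone for either genotype, so the loss of both factors cannot be told apart from other differences between the lines. The duration of the treatment of the sequenced cells is not given in the sources used here. Libraries of a group came from different passages, which were 7, 8, 9 and 11 for WT and 8, 9, 10 and 11 for DKO. Nothing in the labels says that these were separate cultures otherwise, and the p-values measure the spread between these libraries. Total counts ran from 24668921 to 33332562 per library. The RNA integrity number was 7.9 in replicate 3 of DKO with MK-8722 and at least 9.7 in every other library. Of 13 fibroblast markers 12 were tested and none was called in the interaction, and their summed level was 6259 to 10157 CPM (estimated counts relative to TMM-scaled library sizes) over the 16 libraries. Interferon-stimulated genes spread widely between passages of the WT line, with a mean over 40 genes of 2.29 to 6.22 log2 CPM in WT with DMSO and 6.18 to 6.60 in DKO with DMSO. Between pairs of libraries of a group, passage 11 stood apart in both WT groups. Chi-square per degree of freedom was 24.7 to 36.6 for its pairs in WT with DMSO and 25.4 to 32.3 with MK-8722. Other WT pairs had 4.39 to 6.45 and 3.86 to 8.74. In DKO with MK-8722, pairs with replicate 4 (passage 8) had 11.7 to 15.9, and the other pairs had 6.03 to 7.48. Pairs of DKO with DMSO had 4.18 to 13.3. Of 11 macrophage markers 3 were tested and *Cd68*, which is also a membrane protein of lysosomes, was called lower, while *Adgre1*, *C1qa*, *C1qb*, *C1qc* and *Tyrobp* were at 0 in all 16 libraries. The summed level of the 11 was 11.7 to 13.1 CPM in WT with DMSO, 21.2 to 25.3 in WT with MK-8722, 10.2 to 13.5 in DKO with DMSO and 14.2 to 18.8 in DKO with MK-8722. Of 7 endothelial markers 2 were tested and *Kdr* was called lower, at a summed level of at most 2.11 CPM. The part of other cell types in the results was not tested.

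AMPK is a kinase that senses low cellular energy, and MK-8722 binds and activates it directly. TFEB and TFE3 are related transcription factors of the MiT/TFE family. The kinase complex MTORC1, which works on the lysosome's surface, phosphorylates them and keeps them in the cytosol. Once dephosphorylated they enter the nucleus, bind E-boxes of the form TCACGTG, and switch on genes for lysosomes and autophagy. The comparison asks which responses to MK-8722 differ when both factors are lost.

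*Tfeb* itself (chr17:47737030-47792419 of GRCm38) was counted at 23.5, 22.4, 24.97 and 20.9 CPM in the 4 WT libraries with DMSO, replicates 1 to 4, and at 1.95, 2.22, 2.19 and 2.65 CPM in those of DKO. *Tfeb* fell with MK-8722 in WT (log2 fold change -0.39, standard error 0.08), and its interaction of 0.25 was not called (adjusted p = 0.388, edgeR, quasi-likelihood test, Benjamini-Hochberg adjusted, as for every adjusted p here). *Tfe3* was counted at 119 to 122 CPM in WT and 121 to 126 CPM in DKO with DMSO, so gene counts do not show its loss. Its interaction of 0.19 had an adjusted p of 0.00708 but a fold under 1.2. *Mitf*, their relative, fell with MK-8722 in both genotypes, from 9.80 to 5.90 CPM in WT and from 30.5 to 22.8 CPM in DKO, with an interaction of 0.31 (adjusted p = 0.451).

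The interaction was lower in 628 of the 15401 genes (4.08%) and higher in 218 (1.42%). These counts come from the fit without a block, and with passage as a block 906 genes were lower and 486 higher. Most of the lower genes, 530 of 628, had lost a rise. They rose in WT with a median log2 fold change of 0.61, and in DKO their median was 0.06. MK-8722 no longer had a called effect on 449 of them in DKO, while 70 still rose, by less, and 11 fell. A deepened fall was found for 32 genes, with a median of 0.09 in WT and -0.41 in DKO, and 66 genes with a lower interaction were unsorted. Of the genes with a higher interaction, 97 had lost a fall (median -0.50 in WT and 0.04 in DKO), 54 had gained a rise (median -0.05 in WT and 0.38 in DKO) and 67 were unsorted. With passage as a block the patterns held 706 rises lost, 79 falls deepened, 205 falls lost and 157 rises gained. These are bulk libraries, in which a change in the share of cells that express a gene and a change in RNA per cell cannot be told apart. Over all genes tested the medians were -0.01 in WT, 0.00 in DKO and 0.01 for the interaction. Alone in WT, MK-8722 raised 1583 genes (10.3%) and lowered 904 (5.87%), and alone in DKO it raised 843 (5.47%) and lowered 495 (3.21%).

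**Figure D1:**
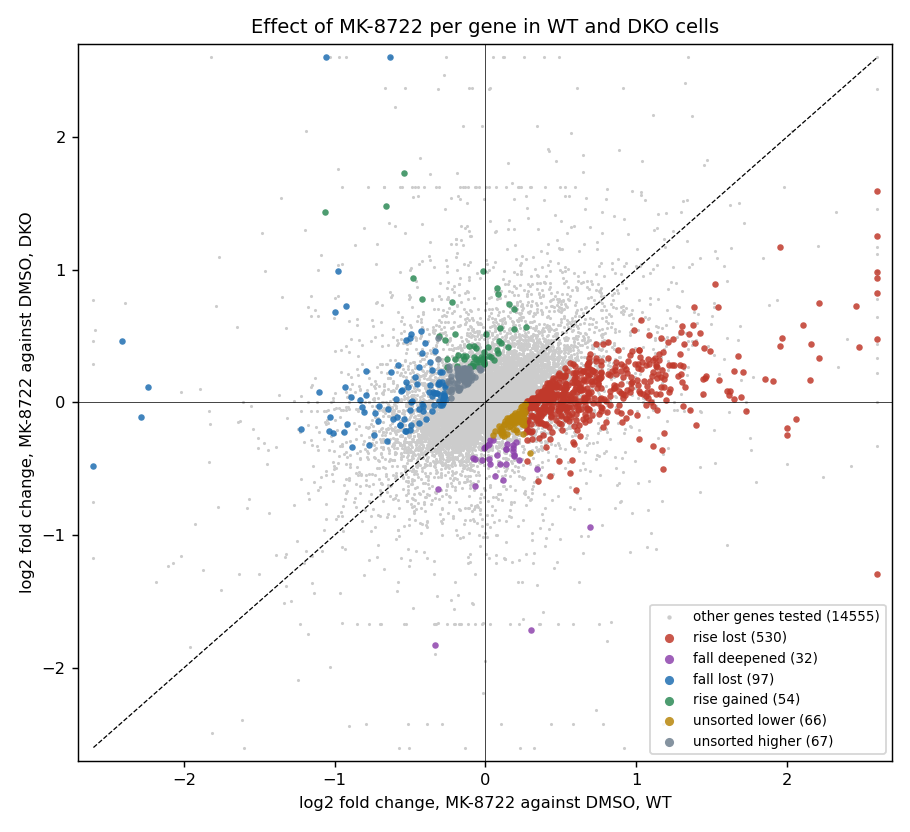
The log2 fold change of MK-8722 against DMSO in WT (x axis) and in DKO (y axis) for each gene tested, coloured by pattern, with a dashed line where both are equal. The 530 genes of a lost rise lie to the right along the horizontal axis, and 10 called and 40 other genes beyond 2.6 on either axis are drawn at the edge.

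The sizes of both classes that DKO cells define depended on single libraries. Fall deepened held 51 genes without replicate 1 of DKO with DMSO and 85 without replicate 4 of DKO with MK-8722, and rise gained held 84 without the latter. Passages 8, 9 and 11 were present in both genotypes, and the interaction was computed within each of them from 4 libraries. Its median over the rise lost genes was -0.54 in passage 8, -0.59 in passage 9 and -0.55 in passage 11, and 529 of the 530 genes were below 0 in all 3. The medians for fall deepened were -0.37, -0.49 and -0.49, those for fall lost 0.46, 0.50 and 0.55, and those for rise gained 0.37, 0.48 and 0.43. These values use the libraries that chose the genes and describe their evenness only.

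**Figure D2:**
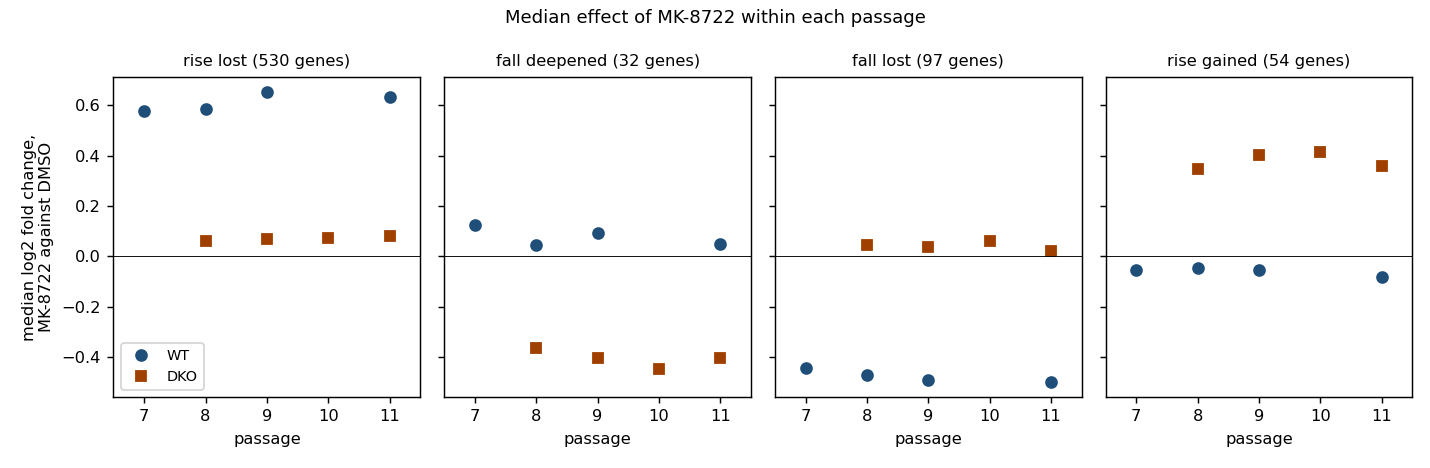
Median log2 fold change of MK-8722 against DMSO over the genes of each pattern, computed within each passage (x axis) for WT (circles) and DKO (squares). For rise lost the WT medians lie between 0.58 and 0.65 and those of DKO between 0.06 and 0.08 in every passage.

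The genes with the largest interactions of each pattern were taken where the mean level reached 3 log2 CPM and treatments did not overlap in the genotype that defines the pattern, so that their lack of overlap there is a condition of the choice. Several of the largest lost rises work in the lysosome. *Dpp7* (chr2:25352276-25356359, a lysosomal dipeptidyl peptidase) was at 18.7, 21.6, 19.1 and 20.6 CPM in WT with DMSO and at 68.8, 68.2, 68.5 and 59.6 CPM in WT with MK-8722. In DKO it was at 22.1, 26.6, 22.6 and 25.1 CPM with DMSO and at 23.04, 21.5, 20.8 and 26.7 CPM with MK-8722. The WT libraries with MK-8722 stood above all 12 others, which overlapped between treatments in DKO (interaction -1.79, standard error 0.12, adjusted p = 7.07e-10). *Uap1l1*, whose product resembles an enzyme that makes UDP-N-acetylhexosamines, lies next to it on the same strand (chr2:25359889-25365682). It was at 48.03 to 59.4 CPM in WT with DMSO, 150.0 to 181 CPM in WT with MK-8722, and 108 to 118 and 106 to 119 CPM in DKO (interaction -1.62). Its DKO level with DMSO was thus already above that of WT. *Ctns* (chr11:73183596-73199042), which exports cystine from the lysosome, went from 7.76 to 8.19 to 23.5 to 25.03 CPM in WT and from 11.9 to 14.1 to 12.2 to 14.2 CPM in DKO (interaction -1.56, standard error 0.08).

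*Neu1* (chr17:34931253-34935953), the lysosomal sialidase, kept part of its rise. Its level was 25.4, 22.7, 25.98 and 23.3 CPM in WT with DMSO, 101, 91.6, 99.9 and 88.7 CPM in WT with MK-8722, 25.4, 24.2, 24.99 and 26.3 CPM in DKO with DMSO and 37.01, 35.1, 36.01 and 32.99 CPM in DKO with MK-8722. The rise was 1.97 log2 in WT and 0.48 log2 in DKO, both called, with no overlap between treatments in either genotype (interaction -1.48, adjusted p = 1.09e-10).

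Of the lysosomal hydrolases and their activators, 25 of the 47 tested were called lower in the interaction and none higher, beside 4.08% and 1.42% of all genes. All 25 were rises lost, and the list's median was 0.41 in WT and 0.09 in DKO. *Tpp1*, a peptidase, rose by 1.18 log2 in WT against 0.12 in DKO. *Ctsa*, the protective protein of NEU1 and beta-galactosidase, was at 126 to 136 CPM in WT with DMSO and 255 to 292 with MK-8722, and at 126 to 142 and 122 to 143 in DKO. *Hexa*, a subunit of beta-hexosaminidase, rose in both genotypes, by 1.22 log2 in WT and 0.28 in DKO, and its interaction was -0.93 (adjusted p = 7.57e-07). The other called members included *Galc*, *Gla*, *Gaa*, *Naglu* and *Ctsb*, *Ctsd* and *Ctsl*.

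The list of membrane proteins and transporters of the lysosome had a median of 0.54 in WT and 0.06 in DKO. Of its 40 tested members 22 (55.0%) were called lower and none higher, beside 4.08% and 1.42% of all genes. Beside *Ctns* they included *Pqlc2*, an exporter of basic amino acids, with 5.15 to 6.55 CPM and 11.1 to 13.04 CPM in WT without and with MK-8722, and 8.49 to 9.70 and 8.57 to 9.68 CPM in DKO. *Cd68* rose in both, by 2.64 log2 in WT and 0.94 in DKO, from low levels. Its mean went from 1.90 to 11.8 CPM in WT and from 4.66 to 8.92 CPM in DKO. The V-ATPase, the proton pump that acidifies the lysosome, had the largest share of members called among the 33 lists. Of its 18 subunits 14 (77.8%) were called lower, beside 4.08% of all genes (median interaction -0.53). In WT 16 rose against 1 in DKO, beside 10.3% and 5.47% of all genes. *Atp6v0b* was at 44.2, 43.2, 44.7 and 44.9 CPM in WT with DMSO, 132, 126, 135 and 126 with MK-8722, 49.3, 52.7, 55.4 and 53.5 in DKO with DMSO and 61.4, 58.96, 57.99 and 58.5 with MK-8722. All WT libraries with MK-8722 were above the highest DKO library (interaction -1.38, adjusted p = 1.32e-10). *Atp6ap2*, an accessory subunit, showed the same lost rise from another starting level, with 28.5 to 31.2 and 67.4 to 71.9 CPM in WT and 75.3 to 81.3 and 79.3 to 88.4 CPM in DKO.

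The promoters of several of these genes hold the sequence TCACGTG. RefSeq promoters of GRCm38, from 250 bases before to 50 bases after each start, were searched on both strands for TCACGTG, which contains the palindrome CACGTG. It was found in 726 of the 10562 tested genes with an entry (6.87%), and in 598 (5.66%) in the 250 bases before the start alone. Only 388 of the 530 rise lost genes had an entry, and 72 of the 97 fall lost genes. Since this is fewer than 80%, a comparison of shares between patterns is void and is not given. Of the 10 rise lost genes with the largest interaction, 6 had an entry and *Dpp7* held the motif. Single sites were listed for part of the genes described here, and only where they lay before the start. Among those genes, the motif also lay in promoters of the rise lost genes *Retreg1* and *Irs2* and of the fall lost gene *Bcl6*. These names are thus not a full list. The sites below are shown because they belong to rise lost genes described here, 1 for each of 7 genes of different lysosomal or endosomal roles or of the factor MLX. Each runs 5′ to 3′ on the strand of its gene over 27 bases, and capitals mark TCACGTG or its reverse complement CACGTGA. A match is a description of the letters and does not show binding.
Dpp7, chr2:25356390-25356416, minus strand: cgccagactaTCACGTGatgctgcccc
Atp6v0b, chr4:117887350-117887376, minus strand: tgcgcgggggTCACGTGgggtcggcgc
Fnip1, chr11:54438094-54438120, plus strand: agtttgctgcCACGTGAtacggctcgt
Rragc, chr4:123917311-123917337, plus strand: tgattccgggCACGTGAtagtaccact
Washc2, chr6:116208001-116208027, plus strand: gcgccccaggTCACGTGaggacaccat
Vps26a, chr10:62486972-62486998, minus strand: gcacggctcgTCACGTGacaactagct
Mlx, chr11:101087239-101087265, plus strand: gtgggttggaTCACGTGactgagcctc

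Genes that govern MTORC1 at the lysosome were called lower in 8 of 41 cases and higher in 1 (19.5% and 2.44%, beside 4.08% and 1.42% of all genes). The list's median interaction was -0.05, and 18 of the 41 were above 0. The lower ones were *Flcn*, *Fnip1*, *Fnip2*, *Rragc*, *Lamtor1*, *Lamtor3*, *Lamtor4* and *Tsc1*. *Rragc* (chr4:123917446-123936997), a GTPase that brings MTORC1 to the lysosome, was at 51.2, 54.1, 51.03 and 52.2 CPM in WT with DMSO, 96.7, 98.9, 98.3 and 95.9 with MK-8722, 78.6, 82.8, 87.8 and 83.9 in DKO with DMSO and 80.5, 77.3, 77.7 and 80.02 with MK-8722. It rose in all WT libraries with MK-8722 and overlapped between treatments in DKO (interaction -0.98, standard error 0.06). *Fnip1*, the partner of folliculin in acting on RRAGC, had an interaction of -1.27 and *Flcn* one of -1.41. *Fnip2* kept a called rise of 0.29 log2 in DKO against 1.13 in WT. The higher one was *Sesn3*, which fell in WT from 34.5 to 40.1 to 23.8 to 27.8 CPM and was at 25.5 to 33.2 and 25.3 to 27.96 CPM in DKO (interaction 0.44, adjusted p = 0.0463). Its call was lost in 18 of 32 alternative settings. None of the 14 tested subunits of AMPK and its upstream kinases was called, none had an unadjusted p under 0.05, and DESeq2 and limma voom called 0. With passage as a block 0 were called, and without replicate 1 of WT with DMSO 1 was called lower.

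Endosome tethering and recycling had 24 of 47 members called lower (51.1%) and none higher, beside 4.08% and 1.42% of all genes. Of the 24, 22 had lost a rise and 2, *Commd9* and *Vps33a*, had a deepened fall. *Vps26a* and *Vps35* of the retromer, *Vps26c* and *Vps35l* of the retriever, *Ccdc22*, *Ccdc93* and *Commd4* of the complex around it, and *Washc1*, *Washc2* and *Washc5* of the WASH complex were among the lost rises. *Vps26a* was at 101, 106, 101.7 and 105 CPM in WT with DMSO, 167, 186, 172 and 180.1 with MK-8722, 157, 161, 161 and 167 in DKO with DMSO and 158, 155, 156 and 150.2 with MK-8722. The DKO libraries with DMSO were above the WT libraries with DMSO, and MK-8722 had no called effect in DKO (interaction -0.83, adjusted p = 1.73e-09). Of the genes that place lysosomes in the cell, 5 of 19 were called lower (26.3%, beside 4.08% of all genes). *Arl8a*, a GTPase that couples lysosomes to kinesin, rose by 1.04 log2 in WT and 0.31 in DKO, and *Arl8b* by 0.54 in WT against -0.13 in DKO, which was under the fold of 1.2.

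Of 40 genes of the autophagosome 7 were called lower (17.5%, beside 4.08% of all genes), which were *Map1lc3b*, *Gabarap*, *Gabarapl1*, *Epg5*, *Uvrag*, *Atg3* and *Atg2b*. The list's median interaction was -0.03, beside 0.01 over all genes. *Map1lc3b*, which encodes the LC3B protein of the autophagosome membrane, rose from 90.05 to 97.3 to 136 to 145 CPM in WT and was at 117 to 127 and 108 to 121 CPM in DKO. *Ulk1*, a kinase that starts autophagy, was called higher (0.29, adjusted p = 0.0387) with no called effect in either genotype, and that call was lost in 17 of 32 settings. Autophagy receptors were called lower in 5 of 18 cases (27.8%, beside 4.08% of all genes). Their median interaction was -0.01, and 7 of the 18 were above 0. *Retreg1*, which marks endoplasmic reticulum for autophagy, rose by 0.97 log2 in WT and *Tollip* by 0.90, against 0.19 and 0.24 in DKO, neither of which was called. The rise of *Tollip* in DKO had an adjusted p of 0.000164 with a fold under 1.2.

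**Figure D3:**
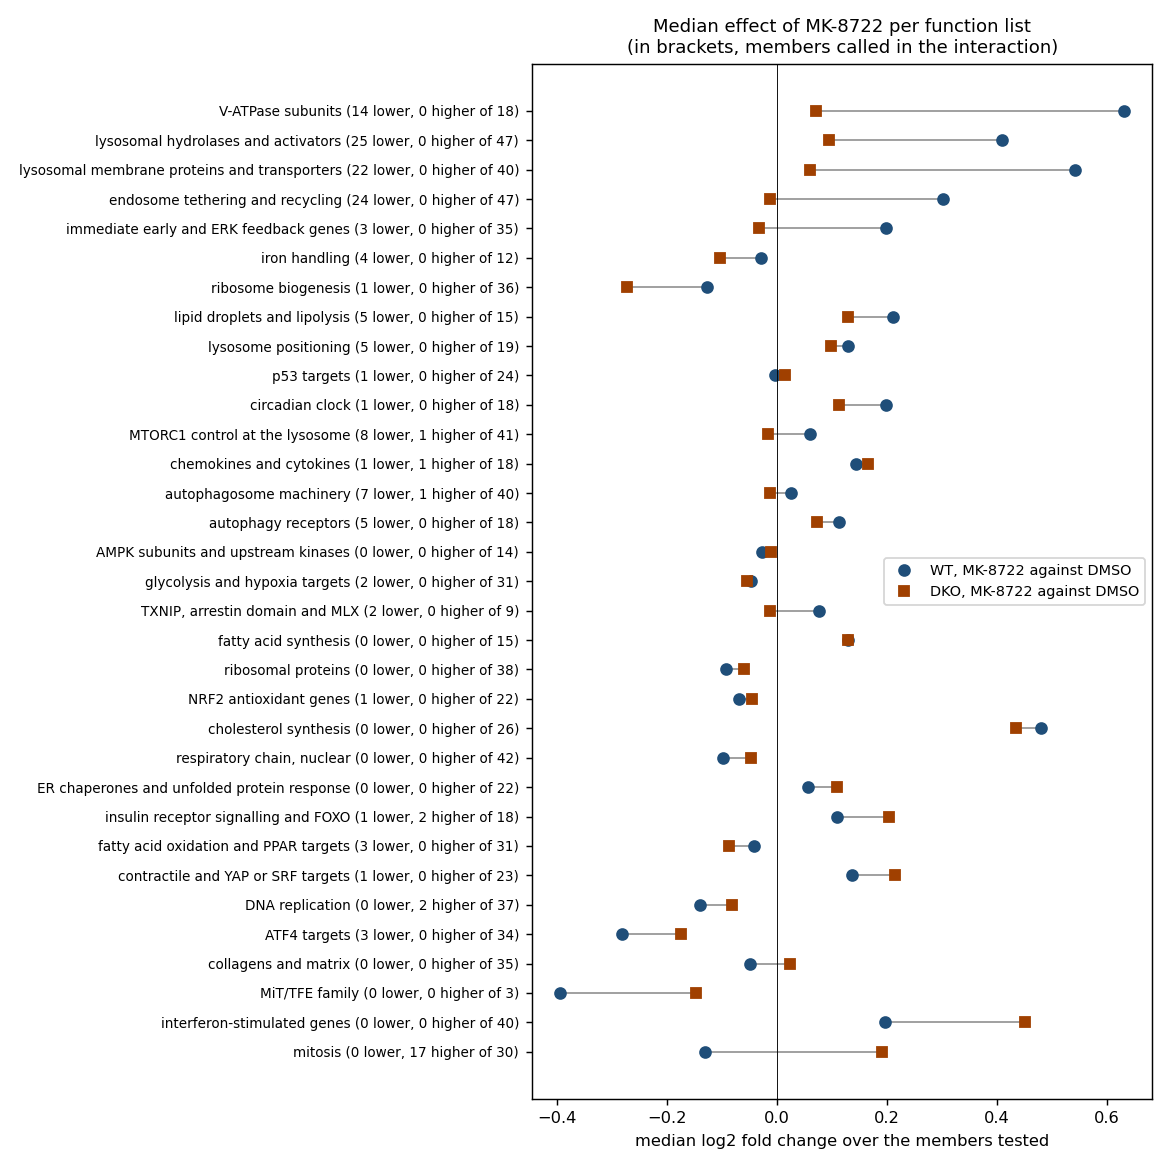
Median log2 fold change of MK-8722 against DMSO over the tested members of 33 function lists in WT (circles) and DKO (squares), ordered by the median interaction. V-ATPase subunits lie at 0.63 in WT and 0.07 in DKO, cholesterol synthesis at 0.48 and 0.43, and mitosis at -0.13 and 0.19.

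Outside the lysosome, rise lost held genes of sugar, fatty acid, metal and signalling roles, and 402 of the 530 were in none of the 33 lists. The largest interaction among called genes whose mean level reached 3 log2 CPM was that of *Gnpda1* (chr18:38327535-38339003), which turns glucosamine 6-phosphate into fructose 6-phosphate. It was at 8.09, 8.46, 8.44 and 8.65 CPM in WT with DMSO, 36.4, 40.4, 39.2 and 33.6 with MK-8722, 6.92, 8.07, 6.87 and 8.58 in DKO with DMSO and 8.00, 8.38, 7.91 and 9.83 with MK-8722. Its rise in WT of 2.15 log2 stood against 0.17 in DKO, which was not called (interaction -1.99, adjusted p = 1.43e-10). Its pseudogene *Gm8615*, whose sequence is close to it, was also a lost rise (interaction -2.19), and reads may be split between both.

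*Slc27a1* (chr8:71568882-71587302), a carrier for long-chain fatty acids, was at 13.9, 14.03, 16.2 and 12.9 CPM in WT with DMSO and 61.5, 46.7, 57.5 and 55.7 with MK-8722, and at 34.5, 34.4, 31.7 and 32.9 and 45.4, 46.9, 41.96 and 44.8 CPM in DKO. It rose in both genotypes, by 1.96 and 0.42 log2. *Mt1*, a metallothionein that binds zinc and copper, also rose in both, from 34.2 to 43.6 to 151 to 182 CPM in WT and from 12.7 to 14.1 to 18.05 to 22.9 CPM in DKO, starting from a lower level in DKO. *Steap3*, an endosomal ferrireductase, went from 8.39 to 10.4 to 25.3 to 34.9 CPM in WT. In DKO it was at 33.1 to 34.9 CPM with DMSO, as high as in treated WT cells, and at 38.1 to 41.5 CPM with MK-8722 (interaction -1.48, adjusted p = 5.06e-08). *Ccbe1*, a secreted protein of lymphatic growth, was at 5.42 to 7.20 and 18.8 to 20.4 CPM in WT and at 13.5 to 18.5 and 16.5 to 22.1 CPM in DKO. *Ccn3*, a secreted matrix protein, rose from 7.13 to 9.73 to 29.3 to 47.5 CPM in WT and from 4.48 to 5.65 to 7.40 to 10.2 CPM in DKO.

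Over the rise lost genes, the median log2 difference of DKO against WT was 0.27 with DMSO and -0.31 with MK-8722. The DMSO libraries enter the interaction too, so these values are not independent of it. Iron handling had 4 of 12 members called lower (33.3%, beside 4.08% of all genes). They were *Steap3*, *Hmox1* (heme oxygenase), *Ftl1* (ferritin light chain) and *Fbxl5* (which targets an iron regulatory protein). *Ftl1* rose by 0.26 log2 in WT against -0.07 in DKO, and it has pseudogenes of near-identical sequence that could share its reads. The call of *Fbxl5* was lost in 14 of 32 settings.

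Stress and growth factor genes contributed a few members. Of 34 ATF4 targets 3 were called lower (8.82%, beside 4.08% of all genes), *Ddit3*, *Ppp1r15a* and *Cebpb*. The list's median was -0.28 in WT and -0.17 in DKO, and 23 of the 34 interactions were above 0, with a median of 0.10. *Ddit3*, a transcription factor of the stress response, was at 15.2, 16.8, 11.6 and 14.8 CPM in WT with DMSO, 29.8, 46.9, 33.7 and 26.1 with MK-8722, 19.8, 28.9, 18.2 and 20.9 in DKO with DMSO and 21.6, 21.3, 17.2 and 32.6 with MK-8722. Treated and untreated WT libraries did not overlap, and those of DKO did (interaction -1.14, standard error 0.28, adjusted p = 0.0118). *Dusp4*, a phosphatase that switches off ERK, rose from 4.40 to 5.67 to 20.96 to 24.5 CPM in WT, and in DKO it was below 1 CPM throughout. *Spry2*, another brake on ERK, rose from 13.7 to 16.7 to 21.9 to 24.9 CPM in WT and was at 14.9 to 18.4 and 16.004 to 17.1 CPM in DKO. They were 2 of 3 members called among 35 immediate early and ERK feedback genes (8.57%, beside 4.08% of all genes), and with passage as a block 11 were called lower. The other was *Ier3*, whose call was lost in 10 of 32 settings. *Eno2*, a glycolytic enzyme, and *Ndrg1*, a hypoxia target, rose in both genotypes and by less in DKO, with interactions of -0.79 and -0.63. *Irs2*, an adaptor of the insulin receptor, rose in WT (0.44 log2) against 0.06 in DKO, and its call was lost in 8 settings.

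In 11 rise lost genes the direction turned, as they rose in WT and fell in DKO, and apart from *Cxcl12* they were named here after their values were seen. *Dusp3*, a phosphatase of MAP kinases, went from 70.0 ± 2.45 to 142 ± 1.35 CPM (mean ± SD, n = 4) in WT and from 94.8 ± 8.04 to 78.5 ± 5.42 CPM in DKO (interaction -1.29, adjusted p = 3.04e-10). *Cxcl12* (chr6:117168535-117181367), a chemokine, was at 30.2, 37.8, 32.5 and 32.5 CPM in WT with DMSO, 43.7, 59.3, 47.6 and 47.3 with MK-8722, 138, 161, 157 and 152 in DKO with DMSO and 109, 97.5, 110.0 and 135 with MK-8722. It was higher in DKO than in WT in all of these libraries, and its interaction was -1.004 (adjusted p = 5.8e-05). *Il6ra*, a receptor for interleukin 6, *Cyp1b1*, a cytochrome P450, and *Cebpd*, a transcription factor, rose by 0.49, 0.27 and 0.56 log2 in WT and fell by 0.44, 0.44 and 0.53 log2 in DKO. The others were *Cdk20*, *Xylb*, *Orai2*, *Mrgpre*, *2410131K14Rik* and *A430057M04Rik*.

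Fall deepened held 32 genes that fell with MK-8722 in DKO, and 30 of them had no called effect in WT. *Cited2* (chr10:17723218-17725674), a partner of the coactivators CBP and p300, was at 201, 208, 199 and 184 CPM in WT with DMSO and 201, 235, 212 and 224 with MK-8722, and at 201, 222, 219.9 and 226 and 154, 147, 155 and 173 CPM in DKO. All 4 treated DKO libraries were below the other 12 (interaction -0.60, standard error 0.09, adjusted p = 9.53e-05). *Commd9* (chr2:101886247-101901646), of the complex around the retriever, was at 20.6, 22.2, 23.5 and 21.3 CPM and 24.6, 23.9, 26.7 and 24.4 CPM in WT without and with MK-8722, and at 17.8, 17.9, 18.1 and 18.3 and 13.5, 13.2, 14.03 and 13.95 CPM in DKO. *Vps33a*, a subunit of the tethers that join endosomes and lysosomes, was at 73.3 to 76.2 and 80.9 to 89.8 CPM in WT and fell from 79.6 to 81.7 to 60.6 to 66.6 CPM in DKO (interaction -0.55, adjusted p = 1.19e-07). For both endosomal genes the adjusted p of the WT effect was under 0.05 with a fold under 1.2, upward.

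*Acsl1* (chr8:46471037-46536051), which activates long-chain fatty acids, was at 34.1 to 38.3 and 37.9 to 44.3 CPM in WT and fell from 19.1 to 20.4 to 13.7 to 17.8 CPM in DKO. *Cpt1a*, which admits them to mitochondria, was at 29.2, 32.9, 27.4 and 31.8 CPM in WT with DMSO, 32.7, 32.6, 30.95 and 27.4 with MK-8722, 22, 19.5, 21.7 and 20.2 in DKO with DMSO and 15.8, 14.96, 15.7 and 13.9 with MK-8722. Treated and untreated WT libraries overlapped and those of DKO did not (interaction -0.49, adjusted p = 0.000934). *Plin2*, a coat protein of lipid droplets, was at 121 to 141 and 121 to 139 CPM in WT and fell from 112 to 137 to 86.9 to 106 CPM in DKO. Among 15 genes of lipid droplets and lipolysis 5 were called lower (33.3%, beside 4.08% of all genes), by different routes. *Plin4* and *Plin3* had lost part of a rise (interactions -2.47 and -0.42), *Plin2* had a deepened fall, and *Abhd5* and *Fitm2* were unsorted. *Plin4* was weakly expressed, at 0.51 to 0.83 CPM in WT with DMSO and 8.37 to 13.6 CPM with MK-8722. In DKO it was at 1.24 to 1.77 and 3.93 to 6.45 CPM, a rise that was called too. Of 31 genes of fatty acid oxidation and PPAR targets 3 were called lower (9.68%, beside 4.08% of all genes), among them *Cpt1a* and the lost rise of *Fabp3*, whose call was lost in 3 of 32 settings, DESeq2 included. In the list as a whole 17 of 31 interactions were above 0, with a median of 0.05.

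The other genes with the largest deepened falls have roles in signalling and transport. *Ramp3*, an accessory protein of calcitonin family receptors, fell from 16.3 to 17.7 to 10.1 to 14.5 CPM in DKO and was at 6.53 to 10.8 and 9.42 to 12.8 CPM in WT. *Sash1*, a signalling scaffold, fell from 13.1 to 14.8 to 9.94 to 12.3 CPM in DKO, and its level in WT was higher, at 71.4 to 86.7 and 81.6 to 94.3 CPM. *Stard9*, a kinesin, had an interaction of -0.56, and *Efnb2*, an ephrin that binds receptors on neighbouring cells, one of -0.56 whose call was lost in 8 of 32 settings. The 2 genes that fell in both genotypes, named after their values were seen, were *Pde4b*, which degrades cyclic AMP, and *Ezr*, which links the membrane to actin. *Pde4b* fell by 0.33 log2 in WT and by 1.83 log2 in DKO, from 7.55 ± 1.28 to 2.14 ± 0.384 CPM (mean ± SD, n = 4), with an interaction of -1.49 (adjusted p = 6.62e-06). *Ezr* fell by 0.32 log2 in WT and 0.65 log2 in DKO.

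**Figure D4:**
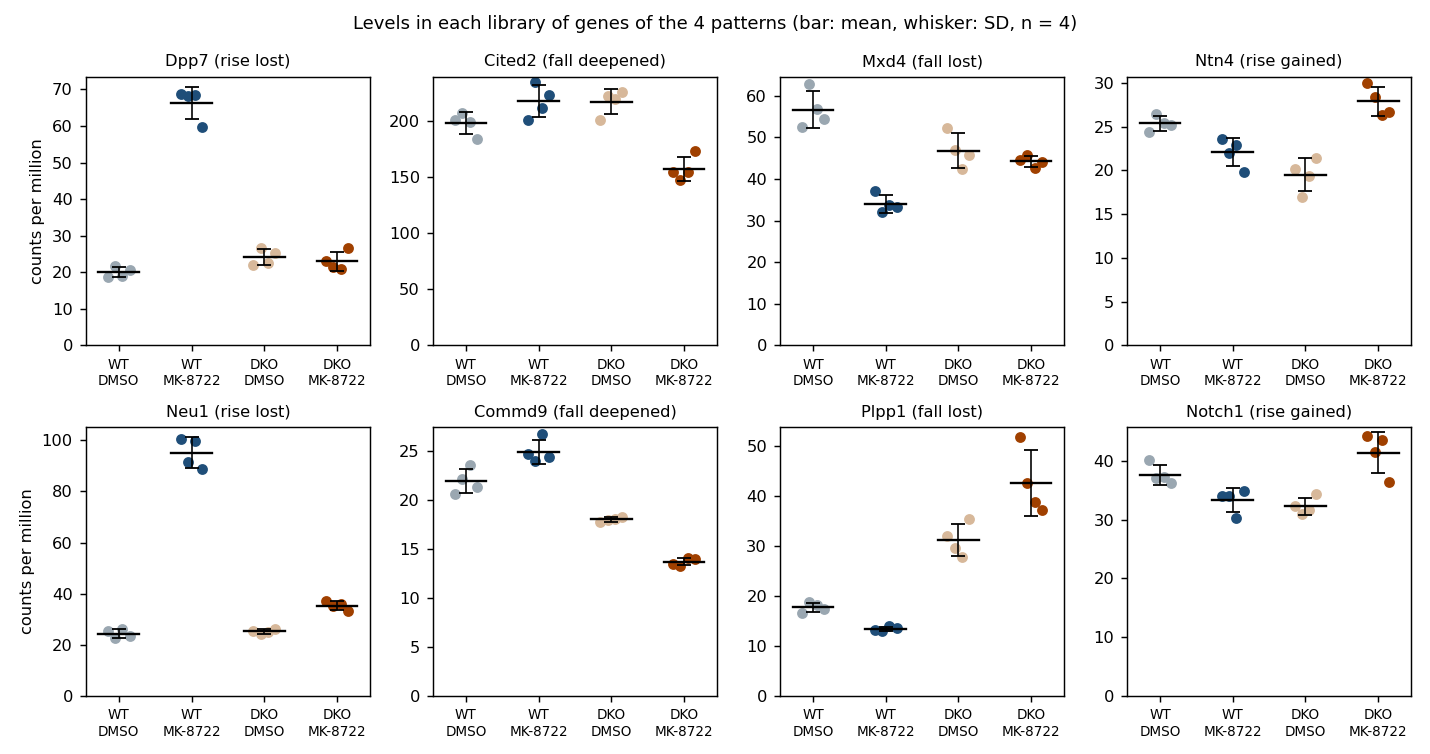
CPM (y axis, from 0) in each library (points) of 2 genes for each pattern, with the mean (bar) and SD (whisker) of the 4 libraries per group. *Dpp7* and *Neu1* rise in WT, *Cited2* and *Commd9* fall in DKO alone, *Mxd4* falls in WT alone, *Plpp1* falls in WT and rises in DKO, and *Ntn4* and *Notch1* rise in DKO.

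Fall lost held 97 genes that fell with MK-8722 in WT, of which 88 had no called effect in DKO, 3 still fell and 6 rose. *Mxd3* and *Mxd4* encode repressors that pair with MAX in place of MYC. *Mxd4* (chr5:34173883-34187720) was at 52.6, 62.9, 56.7 and 54.5 CPM in WT with DMSO and 37.2, 32.1, 33.8 and 33.3 with MK-8722, and at 52.3, 46.9, 42.3 and 45.7 and 44.6, 45.8, 42.7 and 43.98 CPM in DKO. Its WT libraries with MK-8722 were below all others (interaction 0.65, standard error 0.10, adjusted p = 7.38e-05). *Mxd3* fell from 13.7 to 15.3 to 7.88 to 9.46 CPM in WT and was at 8.49 to 10.9 and 7.86 to 10.1 CPM in DKO. *Max* itself had a deepened fall, with 45.1 to 47.7 and 48.1 to 53.8 CPM in WT and 55.3 to 62.9 and 42.8 to 52.8 CPM in DKO (interaction -0.46). *Mlx*, a relative of *Max* that pairs with sensors of sugar, had lost a rise of 0.29 log2 in WT (-0.01 in DKO), and its call was lost in 3 of 32 settings, among them the offset for transcript length and the fit without replicate 1 of WT with MK-8722. *Max* and *Mlx* were the 2 called of 9 genes in the list of TXNIP, arrestin domain proteins and MLX (22.2%, beside 4.08% of all genes).

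*Plpp1*, a phosphatase of lipid phosphates, and *Chst1*, a sulfotransferase of sugar chains, fell in WT and rose in DKO. *Plpp1* (chr13:112800792-112867894) was at 16.4, 18.7, 18.1 and 17.4 CPM in WT with DMSO, 13.2, 12.9, 13.9 and 13.5 with MK-8722, 32.04, 29.6, 27.8 and 35.3 in DKO with DMSO and 51.7, 42.6, 38.8 and 37.1 with MK-8722. Neither genotype's treatments overlapped, and the interaction was 0.85 (adjusted p = 0.000561). *Chst1* went from 27.1 to 33.4 to 20.9 to 25.8 CPM in WT and from 27.4 to 32.4 to 29.8 to 42.9 CPM in DKO, where the treatments overlapped in 1 library. The others that rose in DKO, named after their values were seen, were *Mzf1*, *2810402E24Rik*, and *Mest* and *Tnfrsf13c*, whose mean in DKO was no more than 0.0901 CPM with either treatment.

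*Peg10*, an imprinted gene derived from a retrotransposon, fell from 66.9 to 86.1 to 35.8 to 39.1 CPM in WT and was at 3.80 to 5.21 and 3.55 to 5.05 CPM in DKO. *Scube3*, a secreted protein, fell from 28.2 to 42.9 to 16.5 to 21.3 CPM in WT and was at 3.01 to 3.67 and 2.89 to 3.01 CPM in DKO. *Eppk1*, a linker of the cytoskeleton, was also lower in DKO with DMSO than in WT (4.88 to 6.62 against 16.3 to 22.02 CPM). For these genes the lost fall came with a DKO level already below that of treated WT cells. *Nedd9*, a scaffold of focal adhesions, had an interaction of 0.72 (adjusted p = 0.0455). The calls of *Nedd9* and *Scube3* were lost in 17 and 12 of 32 settings. Of the targets of FOXO factors and genes of insulin signalling, *Ccng2* and *Bcl6* had lost a fall, and the call of *Ccng2* was lost in 19 settings. *Cdc42ep2*, *Hexim1* and *Syt11* fell in both genotypes, by less in DKO, and were named after their values were seen.

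Rise gained held 54 genes that rose with MK-8722 in DKO, of which 53 had no called effect in WT, the exception being *Plekha5*. *Ntn4* (chr10:93640681-93747207), a netrin of the basement membrane, was at 24.4, 26.4, 25.4 and 25.2 CPM in WT with DMSO and 23.5, 22.04, 22.9 and 19.9 with MK-8722, and at 20.2, 16.9, 19.4 and 21.4 and 30.004, 28.4, 26.4 and 26.7 CPM in DKO. Each treated WT library was below every untreated one, with an effect that was not called (-0.20 log2, adjusted p = 0.0737), and each treated DKO library was above (interaction 0.72, adjusted p = 0.000285). *Notch1* (chr2:26457903-26516663), a receptor of signalling between cells, was at 40.1, 37.2, 37.2 and 36.2 CPM in WT with DMSO, 33.99, 34.1, 30.3 and 34.9 with MK-8722, 32.3, 30.9, 31.7 and 34.3 in DKO with DMSO and 44.3, 41.5, 43.5 and 36.5 with MK-8722. Of the treated DKO libraries 3 were above every WT library (interaction 0.54). The calls of *Notch1* and *Zfp827* were lost with an offset for transcript length. *Palld*, an actin bundling protein, had an interaction of 0.58, *Adgre5*, an adhesion receptor, one of 0.53, and *Zfp827*, a zinc finger protein, one of 0.53. *Pdcd4*, an inhibitor of translation that S6 kinase marks for degradation, rose from 18.01 to 24.6 to 27.2 to 30.7 CPM in DKO and was at 34.2 to 43.3 and 36.4 to 40.1 CPM in WT (interaction 0.51, adjusted p = 0.00263). *Mylip*, a ligase that degrades the LDL receptor, rose by 0.70 log2 in DKO, and its call was lost in 19 of 32 settings. *Cx3cl1*, a chemokine, lost its call in 14.

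The genes of mitosis held more upward calls than any other of the 33 lists. Of 30 tested 17 were called higher and none lower, beside 1.42% and 4.08% of all genes, and 29 of the 30 interactions were above 0. The list's median was -0.13 in WT and 0.19 in DKO, with an interaction of 0.30. Its members were spread over the patterns, as 4 had gained a rise, 2 had lost a fall and 11 were called in neither genotype alone. *Cenpf* (chr1:189640606-189688086), a kinetochore protein, was at 121, 112, 135 and 136 CPM in WT with DMSO, 116, 111, 117 and 110.0 with MK-8722, 141, 131, 126 and 143 in DKO with DMSO and 195, 168, 172 and 157 with MK-8722. The treatments overlapped in WT, and in DKO every treated library was above every untreated one (interaction 0.50, standard error 0.10, adjusted p = 0.00176). *Cenpe*, a kinetochore motor, rose from 136 to 163 to 177 to 222 CPM in DKO and was at 169.9 to 186 and 162 to 181 CPM in WT. *Nusap1*, which bundles spindle microtubules, had effects of -0.26 log2 in WT, with a fold under 1.2, and 0.27 in DKO, which was called. *Plk1*, a kinase of mitotic entry, was called in neither genotype (-0.23 and 0.20 log2), while the interaction of 0.43 was (adjusted p = 0.00522). The motor genes *Kif11* and *Kif23* were the lost falls. With any single library left out, 14 to 21 members were called higher, and none was in a test against a fold of 1.2. The call of *Cenpf* was lost with an offset for transcript length. The list's median interaction was 0.26 in passage 8, 0.32 in passage 9 and 0.30 in passage 11.

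**Figure D5:**
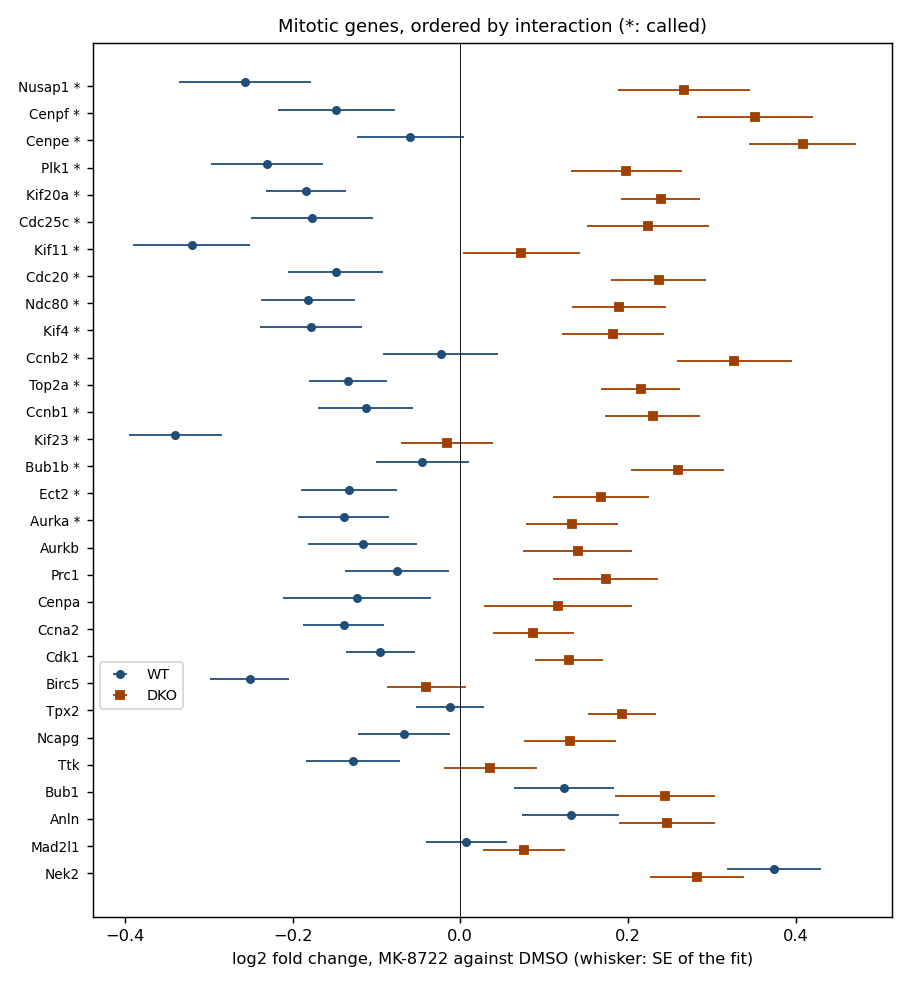
Log2 fold change of MK-8722 against DMSO (x axis) with its standard error (whisker) in WT (circles) and DKO (squares) for the 30 mitotic genes tested, ordered by interaction, with an asterisk on the 17 called. WT points lie left of 0 and DKO points right of 0 for most genes, and *Nek2* is the exception with an interaction below 0.

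Some of the lists held no call in the interaction. Of 26 genes of cholesterol synthesis 15 rose in WT and 13 in DKO, beside 10.3% and 5.47% of all genes. The list's medians were 0.48 and 0.43. None was called in the interaction by edgeR's quasi-likelihood test, DESeq2 or limma voom, all without a block, and 1 had an unadjusted p under 0.05. With passage as a block 1 was called lower, and also 1 without replicate 4 of WT with MK-8722. None of 42 nuclear genes of the respiratory chain was called by these 3 tools, with 2 at an unadjusted p under 0.05. Of the 42 interactions 34 were above 0, with a median of 0.04 beside 0.01 over all genes. None of 38 ribosomal protein genes was called either, with 0 at an unadjusted p under 0.05. Of the 38 interactions 35 were above 0, but the median was 0.03 beside 0.01 over all genes. A gene list without calls does not show equal effects.

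The torin1 arm of the series shares its DMSO libraries with the interaction described here, and values are therefore given side by side. The interaction of torin1, an inhibitor of MTOR, was -1.76 for *Dpp7*, -1.70 for *Ctns*, -1.40 for *Neu1* and -1.41 for *Atp6v0b*, beside -1.79, -1.56, -1.48 and -1.38 for MK-8722. It was called with the same sign in 9 of the 10 largest lost rises, in 2 of the 8 largest deepened falls, in 4 of the 8 largest lost falls and in 4 of the 8 largest gained rises, and with the opposite sign in 2 of the deepened falls. These genes were chosen by an interaction that holds the same DMSO libraries, so calls of the same sign are partly built in. The share of all genes called in the torin1 interaction is not given here. The difference between both interactions, in which the DMSO libraries cancel, was called lower in 960 genes (6.23%) and higher in 745 (4.84%) of all tested. It reuses the MK-8722 libraries that chose the largest genes of each pattern, so its calls in those genes are partly built in by the choice. It was called lower in 3 of the 10 largest lost rises, which were *Gnpda1* (-0.75), *Ccn3* (-0.75) and *Ccbe1* (-1.004). It was called lower in 6 of the 8 deepened falls, among them *Cited2*, whose interaction was -0.60 with MK-8722 and 0.48 with torin1 (difference -1.08, adjusted p = 2.71e-07), and *Ramp3* (difference -1.40, adjusted p = 0.000115). *Vps33a* and *Acsl1*, with differences of 0.01 and -0.01, were the ones not called. The difference was called higher in 3 of the 8 largest lost falls, among them *Plpp1* (0.47, adjusted p = 0.0354), and in 2 of the 8 largest gained rises. *Spry2* and *Ier3* also differed, with -0.94 and -0.80.

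At the edge of the calls, *Ramp1* was the last gene inside by its adjusted p of 0.04999 and *Hpdl* the first outside with 0.0501. *Tnks1bp1* was the last inside by its fold of 1.2003 and *Ift46* the first outside with 1.1998, and 205 genes passed the adjusted p but not the fold.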

How the data were processed

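mRNA of WT and *tfeb tfe3* DKO MEFs was sequenced by the authors from stranded libraries with unique molecular identifiers and processed with nf-core/rnaseq 3.11.2, STAR and salmon on GRCm38 (Ensembl release 102). The deposited estimated counts per gene carry no scaling for library size or length, and here each was rounded to a whole number. The deposited TPM values per transcript and the other columns of the authors' transcript files, such as effective lengths, entered no test apart from the length offset given among the alternatives. Total counts were 24668921 to 33332562 per library.

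Genes passing filterByExpr with a minimum count of 10 (15401) were fitted with edgeR 4.0.16 in R 4.3.3 (quasi-likelihood in its edgeR 3 form, TMM scaling, 1 mean per group over 24 libraries, 18 residual degrees of freedom, biological coefficient of variation 10.7%). The scripts were tested on simulated data. According to the methods the authors removed a batch with limma. The labels give a single batch, and none was removed. CPM values use TMM-scaled library sizes. Coordinates are from GENCODE M21 on GRCm38, which held 15377 of the genes tested. Promoters are from RefSeq on GRCm38.

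Named genes are *Tfeb*, *Tfe3*, *Mitf*, *Tfec* (not tested for low counts), *Hexa*, *Ctsa*, *Flcn* and *Fnip1*, then per pattern the largest interactions (10 for rise lost, 8 for the others) where the mean level reached 3 log2 CPM, with a symbol that is no placeholder, and no overlap between treatments in the genotype that defines the pattern, then up to 4 called members per list and direction with values, and those at the thresholds. Members of small classes were added after their values were seen. The members, the 33 function lists and the tests were chosen with earlier results of these data known. Alternatives covered filters, scaling, DESeq2 1.42.0, limma 3.58.1 voom, thresholds, blocks, transcript length, passages and each library left out. No column of per-sample values was left without a sample. Some called members of the lists are not reported here.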

Additional observations from a re-analysis of the deposited data

Results flagged for a closer look

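Both counts of the interaction, 628 genes lower and 218 higher, come from the test of the difference itself and are no separate support. In 164 sets of 4 libraries of some of the genes described, Dixon's test at the 95% level found 8 in which 1 library stood apart, where chance gives about 1 in 20. Of the treated WT libraries, replicate 4 (passage 7) was low for *Ctsa* at 255 CPM against 285.6 to 291.6 in the others, and low for *Dpp7* at 59.6 CPM against 68.2 to 68.8. Replicate 3 was low for *Ctns* at 23.5 CPM against 24.9 to 25.0, and replicate 2 was high for *Scube3* at 21.3 CPM against 16.5 to 17.1. *Fnip1* was at 24.7 CPM in replicate 4 of WT with DMSO against 23.2 to 23.4. In DKO with MK-8722, *Uap1l1* was at 106 CPM in replicate 2 against 117 to 118.5, and *Pdcd4* at 27.2 CPM in replicate 4 against 30.2 to 30.7. *Nedd9* was at 14.7 CPM in replicate 1 of DKO with DMSO against 12.1 to 12.3.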

How the results depend on the processing

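No named gene changed sign under any of the 32 alternatives, and of the 100 named genes that were called, 50 kept their call in all of them, 39 lost it in 1 to 9 and 11 in 10 or more. The test against a fold of 1.2 left 254 lower and 19 higher genes, with 235 rises lost, 3 falls deepened, 9 falls lost and 1 rise gained. The adjusted p alone gave 62 falls deepened, 202 falls lost and 104 rises gained, and no filter on low counts gave 34 rises gained. Passages 8, 9 and 11 alone, with fewer libraries, gave 114 higher genes, 13 falls deepened, 49 falls lost and 25 rises gained, and leaving out the DKO libraries of passage 8 gave 57 falls deepened. Without the WT libraries of passage 11, 567 genes were lower and 237 higher. With each library left out the ranges were 547 to 698 genes lower, 167 to 270 higher, 465 to 524 rises lost, 22 to 85 falls deepened, 69 to 120 falls lost and 39 to 84 rises gained. Both upper ends, 85 and 84, were without replicate 4 of DKO with MK-8722, and 51 falls deepened were found without replicate 1 of DKO with DMSO. The cause was not tested. DESeq2's Wald test gave 667 lower and 267 higher genes, and 516 of the 530 rises lost were shared with it. The offset for transcript length gave 510 lower and 150 higher genes. It shared 414 of the 530 rises lost, 24 of the 32 falls deepened, 54 of the 97 falls lost and 28 of the 54 rises gained. Passages 8, 9 and 11 alone shared 391, 11, 32 and 21 of these.

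Replicate numbers in the titles stand for different passages in different groups, and same-numbered libraries of both treatments correlated by -0.14 to 0.66 in their deviations from the group means. With the replicate block 609 genes were lower and 200 higher, with 512 rises lost, 35 falls deepened, 86 falls lost and 51 rises gained. Passage did better as a partner, as every library's best partner was that of its own passage, with correlations of 0.058 to 0.66. Of the 8 correlations 2 were under 0.1 (0.058 and 0.098). The main fit was kept without this pairing, and its calls depend on that choice. With passage as a block 906 genes were lower and 486 higher, with 706 rises lost, 79 falls deepened, 205 falls lost and 157 rises gained, and it kept all 530 rises lost. Among immediate early and ERK feedback genes 11 were called lower with it against 3 without, and 15 against 0 interferon-stimulated genes were called higher. Depth limits the weakly expressed genes, and those that failed the filter, such as *Tfec*, were not tested.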

Other observations

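Ribosome biogenesis genes, which make and assemble ribosomes, were lower in the interaction in 35 of 36 cases with a median of -0.15, beside 0.01 over all genes. MK-8722 lowered 3 of them in WT and 19 in DKO, beside 5.87% and 3.21% of all genes. The difference was called lower for 1 (2.78%, beside 4.08% of all genes). This was *Utp15*, which rose in WT (0.27 log2) against -0.15 in DKO (adjusted p = 0.00894, edgeR, quasi-likelihood test, Benjamini-Hochberg adjusted). Another 7 had a lower interaction at an unadjusted p under 0.05. Without replicate 4 of DKO with MK-8722, 8 were called. Genes of DNA replication had 2 of 37 called higher (5.41%, beside 1.42% of all genes), *Tk1* (0.28) and *Rrm2* (0.27). Both make building blocks of DNA, and the call of *Rrm2* was lost in 14 of 32 settings. MK-8722 lowered 9 genes of this list in WT and 0 in DKO, beside 5.87% and 3.21% of all genes. The difference between those counts was not tested.

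Interferon-stimulated genes had an interaction above 0 in 39 of 40 cases, with a median of 0.28 beside 0.01 over all genes. Yet none was called by edgeR, DESeq2 or limma voom and none had an unadjusted p under 0.05. Their level differed widely between passages of the WT line, and the median interaction was 0.34 in passage 8, 0.61 in passage 9 and 0.16 in passage 11. With passage as a block 15 of the 40 were called higher. The part of the passage in this was not tested.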
